A study of Homo sapiens with 4 samples.

Results

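The 33 genes analysed here are targets of the transcription factor p53 and were chosen by name. They were found among the 25006 named genes of the arrays through the accession of each probe, and each gene is shown by its probe with the highest mean signal. By role, 3 act in feedback on p53, 5 in cell cycle arrest, 5 in DNA repair and nucleotide supply, 12 in apoptosis and its control, and 8 in metabolism, stress and other functions. The cells were HML58-3, a derivative of the colorectal cancer cell line HCT116 with a luciferase reporter behind a promoter that is silenced by methylation. They were treated with mock, with decitabine (DAC), a nucleoside that depletes DNA methyltransferase after its incorporation into DNA, or with OR-2003 or OR-2100, prodrugs that release DAC. Each drug was used at 1 µM, was added on day 1, and RNA was taken on day 5. The drugs were dissolved in DMSO, and whether the mock cells received DMSO is not stated in the labels. There was 1 one-colour Agilent array for each condition, which leaves the differences without replicates, and p-values are therefore not given.

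p53 is a transcription factor that is held at a low level by the ubiquitin ligase MDM2 and accumulates when DNA is damaged or other stress signals reach it. It then binds pairs of a short consensus, the half-site, near its target genes, whose products stop the cell cycle, repair DNA, favour apoptosis or change metabolism, and several of which feed back on p53 itself. Several of the targets also answer to other regulators, among them ATF4 and DDIT3 (CHOP), the transcription factors of the response to amino acid shortage and endoplasmic reticulum stress.

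Levels are on a log2 scale of intensity on which the 75th percentile of an array's gene probes is 0, and a difference is the level with a drug minus the level on the mock array. Where 3 values are given together, they stand for DAC, then OR-2003, then OR-2100. A gene was called higher when it was at least 2-fold above mock and had a level of -1 or more with the drug, and lower when it was at least 2-fold below mock and had a level of -1 or more on the mock array. The scanner software gives an error for each spot, and this error of a difference was between 0.065 and 0.21 log2 for the members well above background, with a median of 0.20. It covers the measurement on the slide and not the spread between cultures. Probes well above background numbered from 31601 on the mock array to 33282 on the OR-2003 array, no probe was saturated, and probes printed as 10 spots had a median SD of 0.059 to 0.066 log2. By the software's own criteria the spike-in slope of the mock array, 0.899, lay out of range and those of the drug arrays did not, and its part in the differences was not tested. Of the epithelial markers, *EPCAM*, *KRT8*, *KRT18*, *KRT19*, *CDH1*, *CLDN4* and *CLDN7* were well above background on every array and *VIL1* was not on the mock array, and 4 of the 8, *EPCAM*, *CDH1*, *CLDN4* and *CLDN7*, were called lower with each drug. Of markers of cells not cultured here, 1 of 3 for endothelium (*VWF*) and 0 of 5 for fibroblasts were called higher with each drug and none lower. *PECAM1*, *DCN* and *COL1A2* were under the level threshold and not well above background with mock. Against the lowest level well above background on that array, *PECAM1* was 8.40-fold, 8.90-fold and 9.05-fold higher. *DCN* was 6.63-fold, 7.26-fold and 6.6-fold higher, and *COL1A2* 1.56-fold, 2.01-fold and 1.79-fold. Among the rest, *CDH5* had differences of -0.19, 0.03 and -0.73, and *PDGFRB* of -0.63, -0.29 and -1.08. *COL1A1* had 0.83, 0.77 and 0.90, and *LUM* was not well above background on any array. Of leukocyte genes, *CD14* was called higher with each drug, at -2.27 with mock and -0.58, -0.57 and -0.56, and *PTPRC* had -1.48 with mock and -1.79, -1.75 and -1.64 with the drugs. The part of these markers in the values below was not tested. Of the 33 members, 31 were well above background on all 4 arrays, and *EDA2R* and *SPATA18* were not on the mock array.

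*CDKN1A*, *PLK2* and *TIGAR* were higher with all 3 drugs, and *SESN2*, *BBC3* and *CYFIP2* were lower with all 3. With DAC, 4 of the 33 members were called higher, or 12.1%, against 5.77% of all named genes, and 3 were called lower, or 9.09%, against 5.96%. With OR-2003, 7 were higher (21.2% against 5.89%) and 4 were lower (12.1% against 6.05%). With OR-2100, 3 were higher (9.09% against 5.81%) and 4 were lower (12.1% against 6.82%). The higher counts moved with the processing, to 2, 4 and 1 with another background correction (normexp) and to 7, 9 and 7 when the percentile was taken over bright probes. The 3 comparisons share the mock array, so that they are not independent of each other. Over the drugs, 8 members were called higher at least once, 4 were called lower at least once, and 21 were never called. Of the 25006 named genes, 1599 were called higher at least once, 1879 lower at least once, and 21528 never. With all 3 drugs, 1319 of these genes were called higher and 1304 lower. Several members lay close to the threshold of 1.0 log2, namely *FAS*, *AEN*, *TP53I3*, *SESN1*, *INKA2* and *GDF15*, whose differences were all within the software error of it, so that whether they were counted differed between drugs.

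The median difference of the members was 0.29 with DAC, 0.31 with OR-2003 and 0.16 with OR-2100. Over all named genes it was -0.12, -0.093 and -0.23. Among the 15977 named genes well above background on all arrays it was -0.18, -0.17 and -0.21, which placed the members' median 0.47, 0.48 and 0.37 log2 above it, a gap that rescaling an array cannot alter. Of the 31 members well above background, 13 were above mock by more than the software error with each drug, or 41.9%, where 22.8% of the 15977 genes were. Another 9 members were below mock by more than this error with each drug, or 29.0%, where 42.2% of the genes were.

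**Figure D1:**
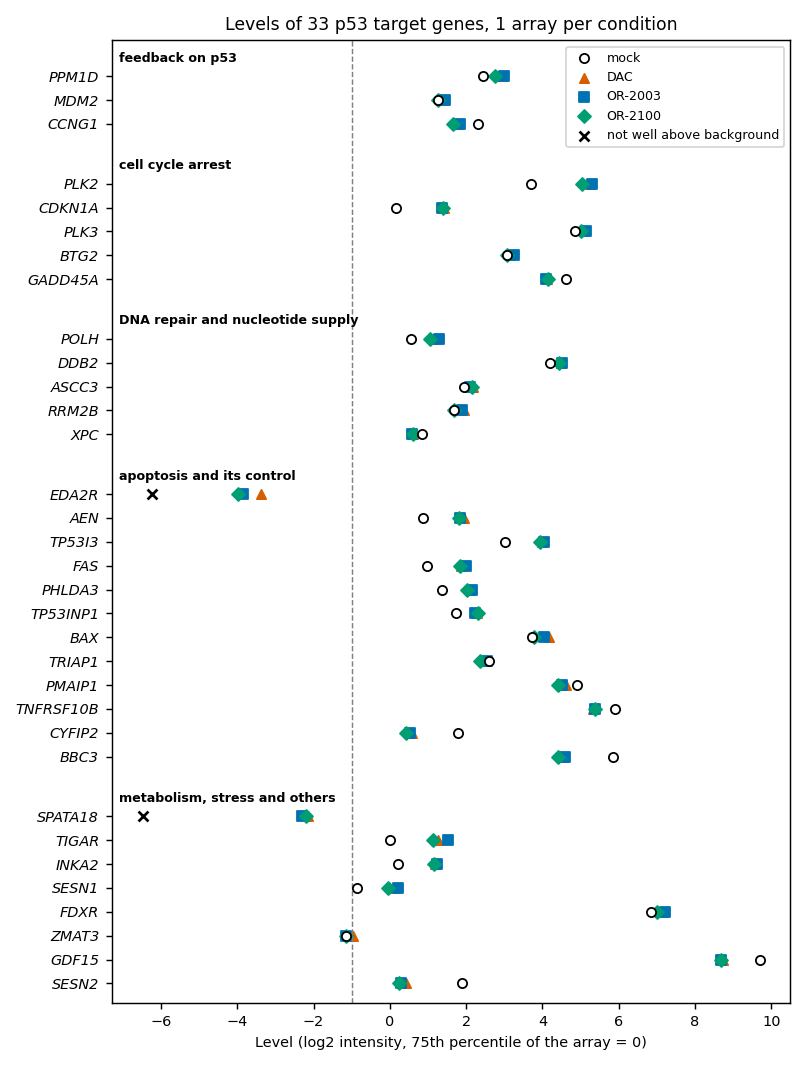
Level of each of the 33 p53 target genes on the mock, DAC, OR-2003 and OR-2100 arrays (x axis, on a log2 intensity scale where the 75th percentile of the array is 0), grouped by role and ordered by mean difference, with 1 point per array and a dashed line at the level threshold of -1. The 3 drug points lie close together for most genes, and crosses mark *SPATA18* and *EDA2R* where they were not well above background.

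The reference promoters of the members were searched for the p53 half-site, a palindrome of 10 bases, as background for the values that follow. RefSeq promoter windows of build GRCh38.p14, from 250 bases before to 50 after a start site, were found for 27 of the members, which have 41 windows. *RRM2B*, *TNFRSF10B*, *TP53INP1*, *GADD45A*, *PHLDA3* and *ASCC3* were not in that table. A half-site on either strand was found in 6 of the 41 windows, or 14.6%, and in 6.63% of all 35116 windows. The matches are printed on the strand of the gene with the half-site in capitals and 10 bases on each side. They are shown because they belong to genes with differences from mock both small (*FDXR*, *DDB2*) and large (*PLK2*).
*AEN*, chr15:88621296-88621325, plus strand: agtcggagccGGGCTTGCCCgggcatgtgg
*FAS*, chr10:88991299-88991328, plus strand: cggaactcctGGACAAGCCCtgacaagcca
*FDXR*, chr17:74872986-74873015, minus strand: gggcaggagcGGGCTTGCCCtgcggagcag
*PLK2*, chr5:58460199-58460228, minus strand: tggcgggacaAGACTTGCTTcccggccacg
*SESN1*, chr6:109009018-109009047, minus strand: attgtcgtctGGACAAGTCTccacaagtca
*DDB2*, both half-sites of a full site, chr11:47214979-47214999, plus strand: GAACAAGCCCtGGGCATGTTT
The *DDB2* window was the only one of the 41 with a full site, which means 2 half-sites at most 13 bases apart. Its half-sites have 1 base between them, and 10 of the 35116 windows, or 0.0285%, held a full site. A match describes the letters of the reference, and binding was not measured. No match was found in the windows of *CDKN1A*, *TIGAR*, *SESN2* or *BBC3*, which says only that the letters do not occur in these windows.

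Among the genes of feedback on p53, none was called. *MDM2*, which encodes the ligase that marks p53 for degradation and is itself a p53 target, had levels of 1.26 on the mock array, 1.41 with DAC, 1.45 with OR-2003 and 1.26 with OR-2100. These differences of 0.15, 0.19 and -0.01 are within the software error. Its other probes gave 0.25, 0.25 and 0.03, and 0.58, 0.79 and 0.61, so that the size depended on the probe, and scaling by the median put the first probe below mock with OR-2003 and OR-2100. *PPM1D*, a phosphatase that removes activating phosphates from p53 and its kinases, stood at 2.45 with mock and at 2.95, 2.99 and 2.75 with the drugs. It was above mock on every drug array. *CCNG1*, the gene of cyclin G1, went the other way, with 2.30 on the mock array and 1.81, 1.84 and 1.66 with the drugs.

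The cell cycle arrest genes held 2 of the 3 members called higher with every drug. *CDKN1A*, which encodes the cyclin-dependent kinase inhibitor p21, had a level of 0.17 with mock, 1.43 with DAC, 1.36 with OR-2003 and 1.39 with OR-2100. All drug arrays were above mock, by 2.39-fold, 2.29-fold and 2.32-fold, and the drugs lay within the software error of each other. The difference was 0.97 and no longer called with OR-2100 under normexp and with OR-2003 under scaling by the median. The mean difference of *CDKN1A* was above that of 93.4% of the 15977 genes. *PLK2*, a polo-like kinase that acts in S phase and at centrioles, had 3.69 with mock, 5.24 with DAC, 5.30 with OR-2003 and 5.04 with OR-2100. Its fold over mock was 2.92, 3.04 and 2.55, its mean difference was above that of 95.1% of the genes, and its promoter held the half-site printed above.

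The other 3 arrest genes were not called. *PLK3*, a related kinase of the stress response, was at 4.86 with mock and at 5.09, 5.13 and 5.00 with the drugs. *BTG2*, an antiproliferative regulator of mRNA decay, was at 3.07 with mock and at 3.14, 3.25 and 3.06. Its differences were within the software error. *GADD45A*, which binds cell cycle kinases and PCNA, was below, on each drug array, the 4.61 of the mock array, at 4.13, 4.10 and 4.15.

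None of the 5 genes of DNA repair and nucleotide supply was called. *POLH*, the polymerase that copies past ultraviolet lesions, was the highest of them relative to mock, with levels of 0.56 with mock, 1.17 with DAC, 1.28 with OR-2003 and 1.04 with OR-2100. These are folds of 1.53, 1.65 and 1.40, and a dimmer probe of *POLH* gave differences of 0.67, 0.76 and 0.72. *DDB2*, a subunit of the complex that recognises damaged DNA and the member with the full site, had 4.19 with mock and 4.48, 4.50 and 4.43 with the drugs. It was above mock on all 3 drug arrays, and its other probe gave 0.55, 0.54 and 0.52. *RRM2B*, a ribonucleotide reductase subunit, had 1.67 with mock and 1.95, 1.90 and 1.69. *ASCC3*, a helicase of alkylation repair, had 1.95 with mock and 2.18, 2.10 and 2.14. By these probes, the differences of *RRM2B* with OR-2100 and of *ASCC3* with OR-2003 and OR-2100 were within the software error. The other *RRM2B* probe gave larger differences, of 0.60, 0.36 and 0.29. *XPC*, which starts nucleotide excision repair, was the only one of the group below mock, at 0.61, 0.59 and 0.60 against 0.84.

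**Figure D2:**
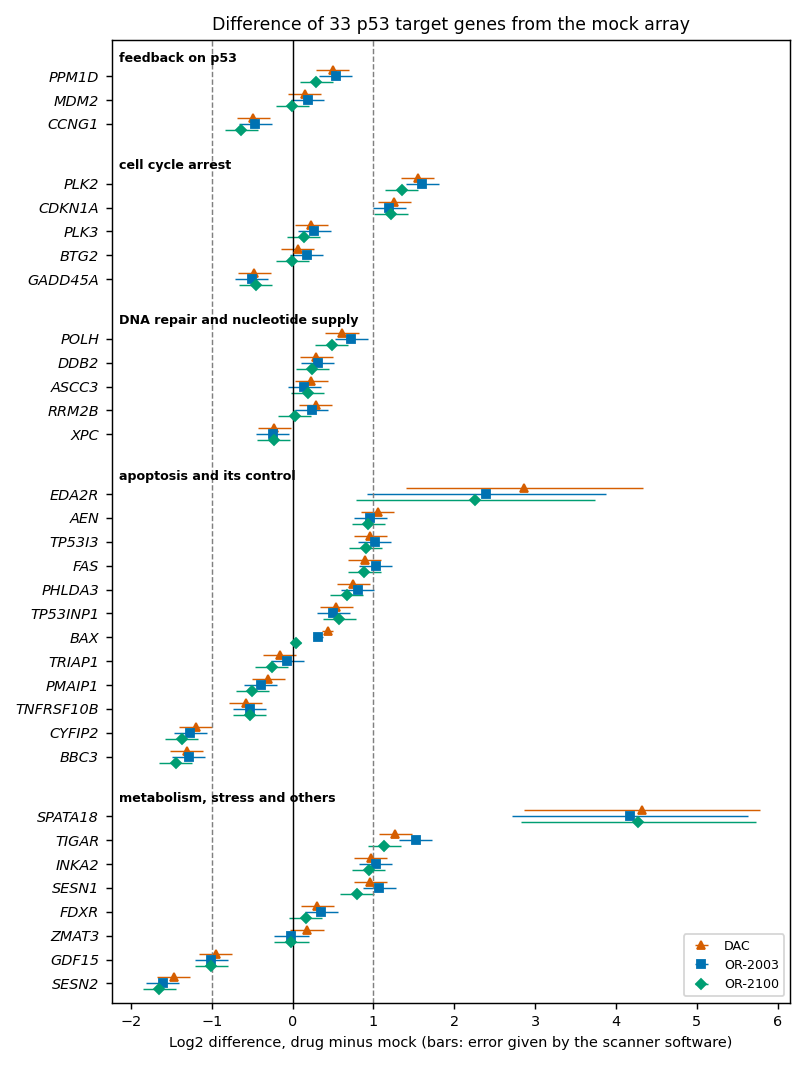
Log2 difference of each p53 target gene from the mock array with DAC, OR-2003 and OR-2100 (x axis), grouped by role, with bars for the error given by the scanner software and dashed lines at -1 and 1. *CDKN1A*, *PLK2* and *TIGAR* lie above 1 and *SESN2*, *BBC3* and *CYFIP2* below -1 with all 3 drugs, and the wide bars of *EDA2R* and *SPATA18* come with mock levels in the background.

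Genes of apoptosis were split in direction. Of the 12 members, 7 were above mock with all 3 drugs and 5 were below with all 3. Of the 25006 named genes, 7592 were above mock with all 3 drugs and 12987 below. The calls in this group were 1 higher and 2 lower with DAC, 2 and 2 with OR-2003, and 0 and 2 with OR-2100. On the higher side was *FAS*, the death receptor of the FAS ligand, with 0.97 with mock, 1.86 with DAC, 2.0 with OR-2003 and 1.85 with OR-2100. Its folds lay about the threshold, at 1.85, 2.04 and 1.85, and the 3 other *FAS* probes, of which 1 was not well above background, were also above mock with every drug, by 0.55 to 1.24. *AEN*, a nuclease that degrades DNA and RNA during apoptosis, had 0.88 with mock and 1.93, 1.84 and 1.81 with the drugs. *TP53I3*, also called PIG3, an oxidoreductase linked to reactive oxygen, had 3.03 with mock and 3.99, 4.04 and 3.94. By these probes, all were above mock on every drug array and were called with 1 drug each. The dimmer *TP53I3* probe gave differences of 1.09, 1.08 and 1.00, past the threshold with every drug. For *AEN* the dimmer probe gave 0.86, 0.67 and 0.73, past it with none. The half-sites of *FAS* and *AEN* are among those printed above.

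The other members of this group above mock had smaller differences. *PHLDA3*, which blocks AKT at the membrane, had 1.36 with mock and 2.11, 2.16 and 2.02 with the drugs. Its dimmer probe gave smaller differences, of 0.25, 0.20 and -0.00. *TP53INP1*, a nuclear stress protein that binds p53, had 1.73 with mock and 2.27, 2.23 and 2.31, and here the dimmer probe gave larger differences, of 1.03, 1.03 and 1.05. *BAX*, which permeabilises the outer mitochondrial membrane, was printed as 10 spots and so was measured most finely, at 3.73 (SD 0.035) with mock, 4.16 (SD 0.049) with DAC, 4.04 (SD 0.053) with OR-2003 and 3.77 (SD 0.045) with OR-2100. By this probe the order of the *BAX* levels was DAC, OR-2003, OR-2100 and mock, and OR-2100 lay within the software error of mock. A dimmer *BAX* probe gave differences of 0.30, 0.38 and 0.18, with OR-2003 above DAC, so that the order depended on the probe.

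On the lower side, *BBC3*, which encodes the BH3-only protein PUMA, had 5.86 with mock, 4.55 with DAC, 4.58 with OR-2003 and 4.41 with OR-2100. Its level was 2.47-fold, 2.44-fold and 2.73-fold lower than on the mock array, and its mean difference was above that of only 5.33% of the genes. With the percentile of bright probes set to 0, the difference with OR-2003 was -0.99 and not called. *PMAIP1*, which encodes the BH3-only protein NOXA, had 4.91 with mock and 4.61, 4.51 and 4.41 with the drugs. *TNFRSF10B*, a death receptor for TRAIL, had 5.91 with mock and 5.33, 5.38 and 5.38. Both were below mock on every drug array but not by 2-fold. *CYFIP2*, a subunit of the WAVE complex that acts on actin, had 1.79 with mock and 0.59, 0.52 and 0.42. It was 2.29-fold, 2.40-fold and 2.59-fold lower, but its dimmer probe gave differences of only -0.21, -0.16 and -0.53, and the mean of both probes, -0.70, -0.71 and -0.95, was not called. *TRIAP1*, which counters apoptosis, had 2.61 with mock and 2.45, 2.54 and 2.35, and was within the software error of mock with DAC and OR-2003.

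Among the metabolism and stress genes, *TIGAR*, which lowers glycolytic flux, had levels of -0.01 with mock, 1.26 with DAC, 1.52 with OR-2003 and 1.13 with OR-2100. It was 2.41-fold, 2.87-fold and 2.19-fold above mock, and with normexp these differences were 0.99, 1.10 and 0.89, so that only OR-2003 passed. *SESN1*, a sestrin that restrains mTORC1, had -0.85 with mock and 0.11, 0.22 and -0.06 with the drugs. *INKA2*, an inhibitor of the kinase PAK4, had 0.21 with mock and 1.17, 1.23 and 1.15. Both were above mock with every drug, near the threshold, and were counted with OR-2003 alone. *FDXR*, the mitochondrial ferredoxin reductase, had 6.85 with mock and 7.16, 7.21 and 7.01, and *ZMAT3*, an RNA-binding zinc finger protein, had -1.14 with mock and -0.96, -1.15 and -1.15. *FDXR* was above mock on each drug array, and the *ZMAT3* differences were within the software error.

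*SESN2*, the paralog of *SESN1*, was the member with the lowest difference from mock. It had 1.89 with mock, 0.42 with DAC, 0.28 with OR-2003 and 0.24 with OR-2100, and so was 2.77-fold, 3.04-fold and 3.14-fold lower. Its mean difference was above that of 3.34% of the genes, where that of *SESN1* was above 91.0%. *GDF15*, a secreted cytokine of cell stress, was the brightest member, at 9.69 with mock and 8.74, 8.68 and 8.68 with the drugs. It was 1.93-fold, 2.01-fold and 2.01-fold lower, and quantile normalization reduced this to differences of -0.51, -0.61 and -0.50.

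A pair of members was measured with the drugs only. *SPATA18*, also called Mieap, which acts in mitochondrial quality control, had levels of -2.16 with DAC, -2.31 with OR-2003 and -2.20 with OR-2100, and on the mock array its probe was not well above background. Against the lowest level well above background on that array, -4.29, it was 4.36-fold, 3.94-fold and 4.24-fold higher with the drugs. *EDA2R*, a receptor of the tumor necrosis factor receptor family, had -3.37, -3.84 and -3.98 with the drugs and was not well above background with mock. Against the same level it was 1.88-fold, 1.36-fold and 1.24-fold higher, and the software error of its differences was 1.47, 1.48 and 1.48 log2. A further *EDA2R* probe was not well above background on any array. Its level with mock was -4.20, so that -4.29 is no strict limit for an undetected probe and the folds against it are no minimum. Both genes stayed under the level threshold of -1 and were not counted, and with normexp their differences were 0.56 to 0.61 for *SPATA18* and 0.14 to 0.26 for *EDA2R*. Since DAC removes DNA methylation, the CpG dinucleotides of their promoters are of interest, and the 250 bases before the *SPATA18* start site and before 1 of the *EDA2R* start sites are printed with CpG in capitals, on the strand of the gene.
*SPATA18*, chr4:52051054-52051303, plus strand: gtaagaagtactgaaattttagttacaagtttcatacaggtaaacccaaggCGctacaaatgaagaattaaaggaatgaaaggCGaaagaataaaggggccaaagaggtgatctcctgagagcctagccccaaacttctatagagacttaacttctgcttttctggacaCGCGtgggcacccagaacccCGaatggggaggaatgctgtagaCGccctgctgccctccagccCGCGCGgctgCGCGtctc
*EDA2R*, chrX:66639270-66639519, minus strand: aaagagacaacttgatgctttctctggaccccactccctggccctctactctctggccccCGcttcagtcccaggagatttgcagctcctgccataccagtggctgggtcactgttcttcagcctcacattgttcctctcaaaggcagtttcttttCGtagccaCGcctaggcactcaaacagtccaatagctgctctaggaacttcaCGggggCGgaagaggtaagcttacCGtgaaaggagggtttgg
These stretches hold 11 and 6 CpG. Over the window of the member with the most CpG per gene, the 27 members had a median of 29, from 5 for *BBC3* to 43 for *TIGAR*, and all 27305 genes of the table had 16. In its window with the most CpG, *SPATA18* has 18 and *EDA2R* has 15. For *EDA2R* that window belongs to another start site, and the window of the printed stretch has 8. The methylation of these promoters was not analysed here.

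By role, the median difference with DAC, OR-2003 and OR-2100 was 0.15, 0.19 and -0.01 for feedback, 0.23, 0.26 and 0.14 for arrest, 0.29, 0.24 and 0.19 for repair, 0.48, 0.41 and 0.31 for apoptosis, and 0.63, 0.69 and 0.48 for metabolism, stress and others. Without *EDA2R* and *SPATA18*, whose differences from mock are no bounds, the last group had 0.30, 0.36 and 0.16 and apoptosis with OR-2100 had 0.04. The differences of the repair genes ran from -0.25 to 0.72 over the drugs, those of the apoptosis genes well above background from -1.45 to 1.05, and those of the arrest genes from -0.50 to 1.60. No test compared the groups.

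**Figure D3:**
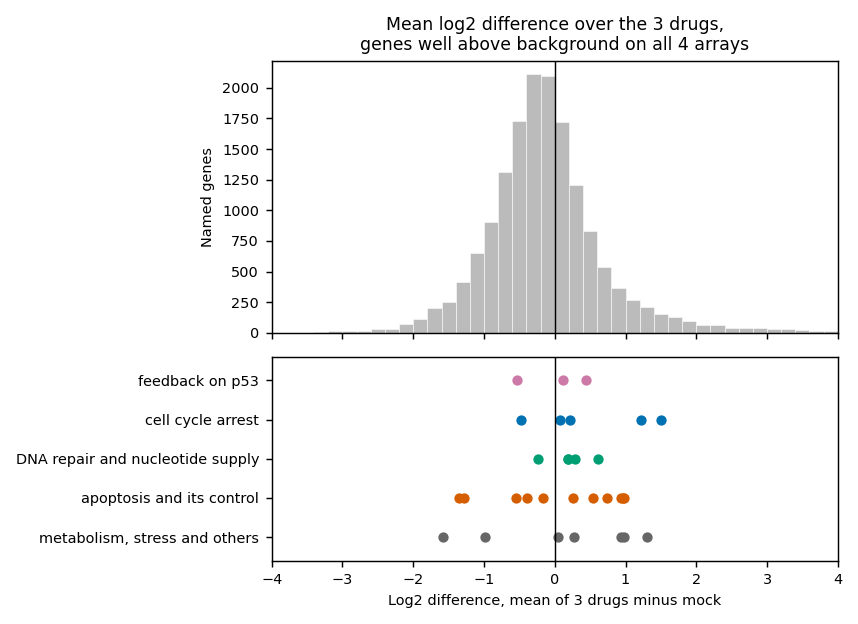
Upper panel, number of named genes (y axis) by mean log2 difference over the 3 drugs (x axis) among the 15977 genes well above background on all arrays, of which 119 lie beyond the axis. Lower panel, the 31 members well above background as 1 point each by role, where the repair genes lie between *XPC*, above 46.9% of the genes, and *POLH*, above 86.0%, while the apoptosis and metabolism genes spread more widely.

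The drugs were compared with each other at the same dose and day for the 31 members well above background, in 3 pairs, and no member differed 2-fold in any pair. OR-2003 minus DAC had a median of 0.026 log2, from -0.20 for *ZMAT3* to 0.25 for *TIGAR*, with 18 members above 0 and 13, or 41.9%, below, where 49.9% of the 15977 genes were below. OR-2100 minus DAC had a median of -0.12, from -0.39 for *BAX* to 0.047 for *TNFRSF10B*, with 28 of the 31, or 90.3%, below 0, where 61.9% of the genes were. OR-2100 minus OR-2003 had a median of -0.13, the lowest being *TIGAR* at -0.39, with 25, or 80.6%, below 0, where 61.5% of the genes were. Over the 15977 genes these medians were 0.00024, -0.044 and -0.045. The software error was passed by 2, 2 and 7 members in these pairs, or 6.45%, 6.45% and 22.6%, where 12.8%, 21.8% and 22.3% of the genes passed it, so that these shares were near or below the background. With 1 culture per drug, an interval for these differences between cultures cannot be given, and whether the drugs act alike on these genes cannot be read from them.

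The lists around the p53 pathway were examined in the same way. Of 22 genes for p53 and its regulators, none was called higher, and 5 were lower with DAC, 4 with OR-2003 and 4 with OR-2100, with medians of -0.29, -0.25 and -0.38. Of all named genes, 5.77%, 5.89% and 5.81% were higher and 5.96%, 6.05% and 6.82% lower. The list's share of lower calls was above that of all named genes with each drug. *CDKN2A*, whose ARF product restrains MDM2, had 5.34 with mock and 4.46, 4.45 and 4.52, and its other probe gave -0.87, -0.93 and -0.82. *MDM4*, a relative of MDM2 that inhibits p53, had probes of opposite sign, with differences of -1.19, -1.08 and -0.97 on the brightest and 0.76, 0.65 and 0.76 on another, so that no direction is given. The acetyltransferase genes *CREBBP* and *EP300* had differences of -2.30, -0.80 and -0.87, and of 0.45, 0.59 and 0.80. *TP53BP2*, a p53-binding cofactor of apoptosis, had 0.40, 0.26 and 0.18.

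Of 70 other p53 targets, 10, 11 and 9 were higher and 8, 9 and 9 were lower, with medians of -0.06, -0.05 and -0.17. Over all named genes, 5.77%, 5.89% and 5.81% were higher and 5.96%, 6.05% and 6.82% lower. With each drug, the list's shares of higher and of lower calls were both above these. The highest among those well above background on all arrays were *HES2*, a transcriptional repressor, at 2.72, 2.62 and 2.69, and *PGF*, a growth factor of vessels, at 2.12, 2.13 and 2.14. The lowest were *KITLG*, the ligand of KIT, at -2.77, -2.75 and -2.89, and *SAT1*, which acetylates polyamines, at -2.19, -2.20 and -2.12. The relatives of *TNFRSF10B* did not move together, with *TNFRSF10A* at 0.73, 0.62 and 0.78, the decoy receptor gene *TNFRSF10C* at 1.71, 1.66 and 1.66, and *TNFRSF10D* at -0.15, -0.11 and -0.20. These relatives were named after their values had been seen.

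Since p21 lowers cell cycle genes through the DREAM complex, 25 such genes were set beside *CDKN1A*. Their medians were -0.30, -0.33 and -0.45, against -0.18, -0.17 and -0.21 for the 15977 genes, with 1, 0 and 0 higher and 0, 1 and 3 lower. The shares of all named genes were 5.77%, 5.89% and 5.81% higher and 5.96%, 6.05% and 6.82% lower. *CDC25C*, a phosphatase that starts mitosis, had -0.99, -1.14 and -1.20, and *CCNB2*, a mitotic cyclin, had -0.81, -0.91 and -1.11. *CDC25A*, a phosphatase of S phase entry, had 1.01, 1.00 and 0.92, and *CDC20*, an activator of the anaphase-promoting complex, had 0.46, 0.46 and 0.24. Of the 25 genes, 18 were below mock with all 3 drugs and 3 were above with all 3. Of the 15977 genes, 9011 were below with all 3 and 5175 above.

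The 11 genes of the ATF4 list were examined because several of the members below mock also answer to ATF4 or DDIT3, as is known for *SESN2*, *BBC3*, *PMAIP1*, *TNFRSF10B*, *GADD45A* and *GDF15*. Of these 11, 9 were lower with each drug and none was higher, with medians of -3.04, -3.03 and -3.15. Over all named genes, 5.96%, 6.05% and 6.82% were lower. *ATF3*, placed in the list of other p53 targets and not in this one, was called higher with each drug. It had 4.75 with mock and 5.89, 5.92 and 5.92 with the drugs, and was named after its values had been seen. *VLDLR* was not well above background with mock and had -2.67, -2.42 and -2.48 with the drugs, under the level threshold. Against the lowest level well above background on the mock array, it was 3.06-fold, 3.65-fold and 3.49-fold higher. *SLC7A11*, the cystine transporter, had 5.74 with mock, 1.23 with DAC, 1.18 with OR-2003 and 1.26 with OR-2100, and *DDIT4*, an inhibitor of mTORC1, had 6.44 with mock and 2.27, 2.28 and 2.21. *ATF4* itself had 9.36 with mock and 7.83, 7.85 and 7.72, and *CEBPB*, a transcription factor, had 5.92 with mock and 5.08, 5.10 and 5.04. *DDIT3* had differences of -2.88, -2.82 and -2.83. The part of this shift in the lower levels of the 6 members was not tested. The 11 housekeeping genes had medians of -0.19, -0.16 and -0.34 with none called, from *RPLP0* at -0.81, -0.76 and -0.97 to *ACTB* at 0.21, 0.20 and 0.02.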

How the data were processed

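The authors deposited the scanner output of 4 one-colour arrays, in which spot intensity had been background-corrected by Agilent Feature Extraction 12.1.0.3, and a series table whose intensity values differed at 0 spots from it. Controls and outlier spots were dropped, log2 intensity was averaged over each probe's spots, and gene probes were scaled to a 75th percentile of 0, following the scaling and the thresholds of the study's methods. Of the probes, 34892 were named through RefSeq accessions (GRCh38.p14). The 33 members, their roles and the other lists, which come from general knowledge, were chosen with earlier results of these data known. Named genes were all members called or without a mock level well above background, the highest and lowest of each role and list, and *CDKN1A*, *MDM2*, *MDM4* and *CDKN2A*; the remaining members were added so that each is accounted for. Some genes that this rule names, and the count of the leukocyte marker list, are not reported here. For genes not well above background with mock, folds were taken against the lowest level well above background on that array, which is no strict bound. Scaling and calling were tested on simulated data. Alternatives were the series table, normexp with an offset of 50 (run on the median spot intensity), quantile normalization, the 75th percentile of bright probes, median scaling, outlier spots retained, medians over spots, means over a gene's probes, removal of dim probes, a 1.5-fold threshold and no level threshold. Python 3.11.15, numpy 2.4.6, pandas 2.3.3, matplotlib 3.10.9, R 4.3.3 and limma 3.58.1 were used. All arrays shared 1 slide and 1 scan run, and their number limits the precision.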

Additional observations from a re-analysis of the deposited data

How the results depend on the processing

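No paired analysis was possible because there was 1 array for each condition, which also means that none could be left out. A list median was taken as moved when it changed by more than 0.20 log2, the median software error, and a count by more than 1.5 times. The value of a named gene was taken as moved when it changed by more than its own software error, which was large for *EDA2R* and *SPATA18*. Values are in the order DAC, OR-2003 and OR-2100 where 3 are given. Of the 20 members above mock with all drugs, 20 kept their sign under each scaling and averaging except the median, where 17 did, and of the 10 below, 10 did except 9 with quantile normalization and 8 with the percentile of bright probes. The median of the 33 genes stayed above 0 in every setting, from 0.072 to 0.60.

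With the 75th percentile of bright probes, which shifted the median of all named genes to 0.11, 0.20 and 0.03, the medians were 0.52, 0.60 and 0.42 for the members, 0.38, 0.48 and 0.25 for feedback, 0.46, 0.56 and 0.39 for arrest, 0.51, 0.53 and 0.44 for repair, 0.71, 0.70 and 0.56 for apoptosis, 0.86, 0.99 and 0.73 for metabolism, stress and others, 0.16, 0.24 and 0.088 for the other p53 targets, -0.071, -0.034 and -0.19 for the DREAM list and -2.81, -2.74 and -2.89 for the ATF4 list. The p53 regulators had -0.066, 0.048 and -0.13, so that their direction with OR-2003 turned. Members called higher were 7 with DAC and 7 with OR-2100, and 1 was lower with OR-2003. With median scaling, which shifted all named genes to -0.23, -0.32 and -0.32, the OR-2003 medians were 0.085 for the members, -0.037 for feedback, 0.041 for arrest, 0.014 for repair, 0.19 for apoptosis, 0.47 for metabolism, stress and others, -0.47 for the regulators, -0.27 for the other targets, -0.55 for the DREAM list and -3.25 for the ATF4 list, and 4 members were higher with OR-2003 and 5 with OR-2100. *CDKN1A* with OR-2003 was then at 0.97.

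With quantile normalization the ATF4 median was -2.75 with DAC and -2.85 with OR-2100, the members and the arrest genes had 0.37 with OR-2100, and 5 members were higher with OR-2100. Normexp gave 2, 4 and 1 higher members and a metabolism median of 0.48 with OR-2003. Averaging the probes of each gene gave feedback medians of 0.41 with OR-2003 and 0.21 with OR-2100. Leaving out dim probes gave 0.30, 0.36 and 0.16 for metabolism, stress and others and 0.040 for apoptosis with OR-2100. A 1.5-fold threshold gave 10 higher members with DAC and 9 with OR-2100, and without the level threshold 5 were higher with OR-2100. The other 273 list medians and counts, and 488 of 615 values of named genes, moved by less, and the cause of the moves was not tested. These totals include results that could not move. The series table held the same intensities as the scanner output, and leaving out dim probes does not change the value of a gene that is kept.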
